A study of Homo sapiens with 79 samples.

Results

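The mRNAs described here come from 10 genes of heterogeneous nuclear ribonucleoproteins (hnRNPs), namely HNRNPA1, HNRNPA2B1, HNRNPC, HNRNPF, HNRNPH1, HNRNPH2, HNRNPH3, HNRNPK, HNRNPL and HNRNPU. They were taken by gene symbol, from a list set with earlier results of these data known, out of 48453 genes in a table of RNA associated with 24 proteins in K562 cells. All 10 passed the filter on low values that left 25442 genes for testing. Their 160 isoforms were followed in the matching isoform table, where 149 passed the same filter.

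The hnRNPs are abundant nuclear proteins that coat nascent pre-mRNA and influence its splicing, export, stability and translation. HNRNPH1, HNRNPH2, HNRNPH3 and HNRNPF form a subfamily whose RNA binding domains recognize runs of G, whereas HNRNPU, also called scaffold attachment factor A, binds both RNA and nuclear DNA. Several hnRNP proteins act on the splicing of hnRNP pre-mRNAs, their own included, and the loci of this family yield many isoforms that keep intron sequence.

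RNA was collected by formaldehyde RNA immunoprecipitation (fRIP), in which lightly cross-linked cells were sonicated, an antibody to 1 protein was used to pull it down from the lysate, and the RNA that came with it was sequenced. K562 is an erythroleukemia cell line, and all libraries, inputs included, came from cross-linked cells. There were 70 fRIP libraries of 24 proteins (the RNA-binding proteins HNRNPH1, HNRNPU, HUR, IMP1, PABP and ADAR, and the chromatin or nuclear proteins SUZ12, EZH2, DNMT1, RBBP5, WDR5, CBP, PCAF, HDAC1, LSD1, PHF8, CHD1, CHD4, CHD7, CBX3, phospho-CBX3, CTCF, STAG2 and NUP98), with 3 libraries each except 2 for EZH2 and 2 for STAG2. The 9 input libraries were made from lysate set aside before immunoprecipitation and are labelled as 3 sets of 3, and no label says what separates the sets or which fRIP goes with which set. The replicates of a protein came from different dates and lysates of 1 cell line. The antibody of the HNRNPH1 fRIP is labelled only as hnrnph, and no library without an antibody or with an unspecific one was analysed here.

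Values are FPKM (fragments per kilobase of transcript and per M fragments, where M stands for mega), so that each is a share of its own library and a higher value can also mean less of other RNAs. The depth of a library, estimated from the smallest differences between its FPKM values, was 1.79 M to 54.5 M fragments, with 11.1 M to 28.3 M for input, 6.02 M to 7.05 M for HNRNPH1 and 6.25 M to 7.97 M for HNRNPU. In the HNRNPH1 and HNRNPU libraries the members rested on 273 to 39262 fragments each, and HNRNPH2 on the fewest. Replicates of a group correlated across genes at 0.948 to 0.995, and no pair of libraries was identical. The 11 erythroid genes checked as K562 markers averaged 8.83 to 866 FPKM in input, whereas CD3E, ALB, KRT5 and COL1A1 averaged under 0.5 FPKM. A gene was called enriched or depleted when it differed from the 9 inputs by over 2-fold, with a p from limma below 0.05 after Benjamini-Hochberg adjustment, on the scale of log2(FPKM + 1), on which all fold changes below are given.

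In the HNRNPH1 fRIP, 7 of the 10 hnRNP mRNAs were enriched, while 24.5% of all tested genes were enriched. None of the 10 was depleted, against 7.90% of all genes. The median log2 change was 1.21 over the members and 0.34 over all genes. HNRNPH3, HNRNPH1, HNRNPU, HNRNPA1, HNRNPA2B1, HNRNPK and HNRNPL passed, and HNRNPH2, HNRNPC and HNRNPF did not. Against input set 1, 2 or 3 alone, 8, 6 and 5 members were enriched, beside 19.8%, 26.5% and 26.9% of all genes. Without replicate 3 of the HNRNPH1 fRIP 5 members were enriched, beside 25.6% of all genes, HNRNPA2B1 (0.99) and HNRNPL (0.94) then lying below 2-fold. When each library was shifted so that the median of its genes was equal, the median HNRNPH1 fRIP change of all genes moved by 0.73, 1 member remained enriched (HNRNPH3, 2.02), against 8.59% of all genes, and 1 was depleted (HNRNPF, -1.17), against 22.1%. The enriched share of all calls went from 75.6% to 28.0%.

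Within the H/F subfamily, HNRNPH3 (chr10:70090931-70102950, plus strand, GRCh37) had the largest change. Its values were 339, 395 and 505 FPKM in the 3 HNRNPH1 fRIP libraries, against 52.5, 59.7 and 69.4 FPKM at the lowest, the median and the highest of the 9 inputs. The log2 change was 2.75 (SE 0.13, n = 3 and 9, limma adjusted p = 7.92e-27; exact permutation p = 0.00455, the smallest this design can give), a 6.74-fold difference. All 3 fRIP libraries stood far above every input, and this was the only member that stayed enriched after centring. HNRNPH1, the mRNA of the precipitated protein itself (chr5:179041179-179061785, minus strand), was at 1379, 1207 and 1414 FPKM in its own fRIP and at 363, 405 and 505 FPKM at the lowest, median and highest input. It rose 3.14-fold (log2 change 1.65, SE 0.12, adjusted p = 2.98e-18), and the groups did not overlap.

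HNRNPH2 and HNRNPF, the other members of the subfamily, differed from these. HNRNPH2 (chrX:100663210-100669121, plus strand), the gene with the lowest level in input, had 47.7, 42.9 and 63.6 FPKM in the HNRNPH1 fRIP and 19.7, 26.5 and 29.3 FPKM at the lowest, median and highest input. Its log2 change of 0.99 (SE 0.13, adjusted p = 9.35e-10) lay just under the 2-fold threshold, although all 3 libraries were above all inputs. HNRNPF (chr10:43881065-43904634, minus strand) had 176, 175 and 194 FPKM against 207, 253 and 292 FPKM in the inputs. All 3 of its values lay below every input, with a log2 change of -0.43 (SE 0.10, adjusted p = 1.26e-04). Of the 31-base words in HNRNPH2 transcripts 19.4% also occur in other genes, mostly in the readthrough gene RPL36A-HNRNPH2 (14.7%). The share was 7.09% for HNRNPH1, 2.01% for HNRNPH3 and 0.430% for HNRNPF, so fragments of HNRNPH2 could be the most divided of these. Such words were taken from all transcripts of GENCODE v44, a later annotation than the GENCODE v18 that the authors counted. They can therefore include sequence that was not counted.

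HNRNPU (chr1:245003940-245027862, minus strand) was at 904, 861 and 1435 FPKM in the HNRNPH1 fRIP and at 281, 326 and 412 FPKM at the lowest, median and highest input. The change was 3.11-fold (log2 change 1.64, SE 0.16, adjusted p = 1.64e-13), and replicate 3 was well above the other two, though all 3 exceeded every input. In GENCODE v44, 14.6% of the 31-base words of HNRNPU transcripts also occur in COX20. No counted HNRNPU isoform reaches below 245013599, so part of this share may lie in sequence that was not counted. An antisense gene, HNRNPU-AS1, overlaps HNRNPU. The library kit does not mark strand, so reads of such genes cannot be told apart where they overlap.

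Among the A/B proteins, which bind many sites in pre-mRNA and shuttle to the cytoplasm, HNRNPA1 (chr12:54673977-54680872, plus strand) was at 1092, 1007 and 1206 FPKM in the HNRNPH1 fRIP and at 342, 368 and 413 FPKM in the inputs. That is a 2.95-fold rise (log2 change 1.56, SE 0.11, adjusted p = 6.36e-19), with a narrow spread in both groups. HNRNPA2B1 (chr7:26210771-26241149, minus strand) was at 930, 749 and 1565 FPKM against 317, 412 and 528 FPKM. Its rise was 2.45-fold (log2 change 1.29, SE 0.22, adjusted p = 4.80e-07), and replicate 3 again lay highest. HNRNPA1 has many processed copies in the genome (15.2% of its 31-base words are shared), and HNRNPA2B1 shares 12.2%, mostly with its neighbours NFE2L3 and CBX3. No counted HNRNPA2B1 isoform reaches below 26229286, so part of its share may lie in sequence that was not counted.

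HNRNPK, a protein of KH domains that binds C-rich sequence (chr9:86582998-86595546, minus strand), had 289, 350 and 414 FPKM in the HNRNPH1 fRIP and 119, 172 and 190.5 FPKM at the lowest, median and highest input, a 2.19-fold rise (log2 change 1.13, SE 0.11, adjusted p = 2.22e-13). HNRNPL, known for binding CA repeats (chr19:39327010-39342987, minus strand), had 348, 398 and 496 FPKM against 143, 206 and 232 FPKM, a 2.10-fold rise (log2 change 1.07, SE 0.14, adjusted p = 8.18e-10). In neither gene did the groups overlap. HNRNPC (chr14:21677295-21737653, minus strand), which packages nascent transcripts and binds U-rich tracts, was at 182, 192 and 255 FPKM against 151, 211 and 252 FPKM. Its values lay within or at the edge of the input range, and the log2 change of 0.05 (SE 0.16, adjusted p = 0.806) did not differ from 0 beyond the spread of the libraries.

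**Figure D1:**
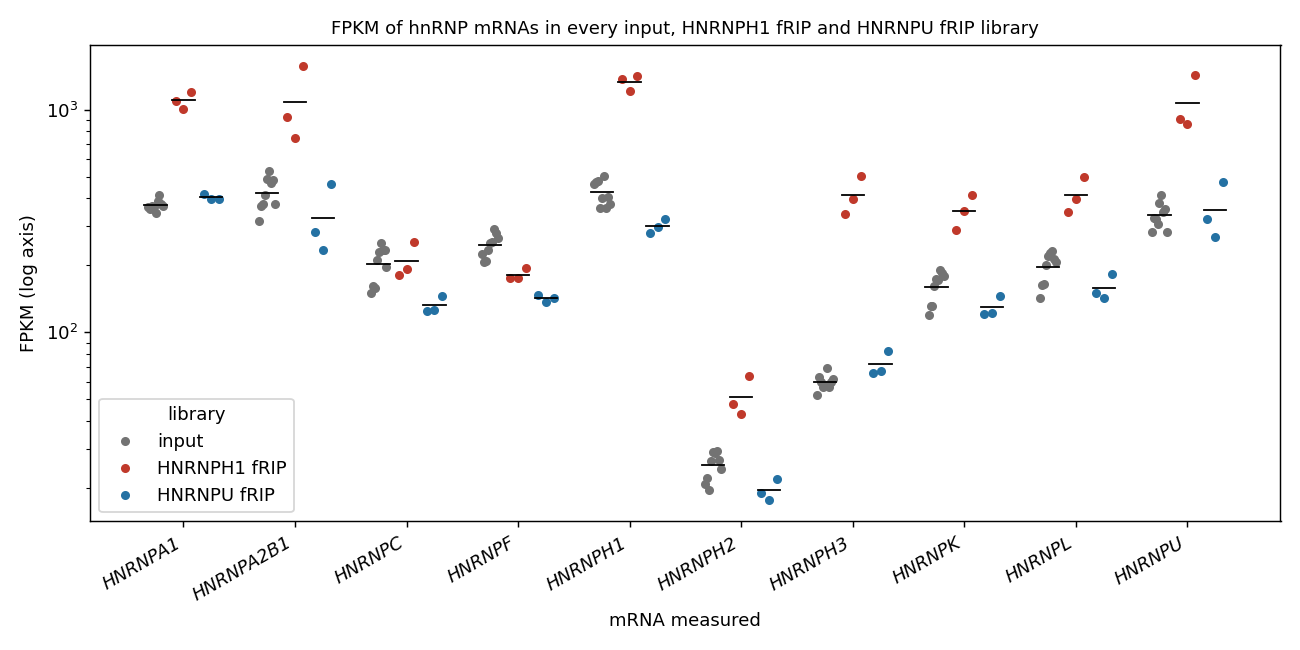
FPKM (log axis) of the 10 hnRNP mRNAs in each of the 9 inputs (grey), 3 HNRNPH1 fRIP (red) and 3 HNRNPU fRIP (blue) libraries, with a black line at each group mean. The red points lie above all grey points for 8 genes, mix with them for HNRNPC and lie below them for HNRNPF (34.3% of all tested genes lie above and 13.5% below), while the blue points lie below all grey points for HNRNPC, HNRNPF and HNRNPH1 and overlap them for the other 7 genes (22.1% of all genes lie above and 8.23% below).

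In the HNRNPU fRIP none of the 10 members was enriched, against 13.1% of all genes, and none was depleted, against 2.52%. By the adjusted p alone, with no fold threshold, 5 members were lower than input, against 12.7% of all genes. These were HNRNPF (log2 change -0.78, SE 0.10), HNRNPC (-0.60, SE 0.16), HNRNPH1 (-0.49, SE 0.12), HNRNPH2 (-0.34, SE 0.13) and HNRNPK (-0.29, SE 0.11). HNRNPH2 no longer passed without replicate 1 or 2 of the HNRNPU fRIP. HNRNPK did not pass without either of these or without replicate 1 or 2 of input set 3, its exact permutation p was 0.109, and against input set 1 alone its log2 change was 0.025. The member median was -0.32 and the median of all genes 0.16. After centring of the libraries, which moved the HNRNPU fRIP by 0.59, 4 members were depleted (HNRNPA2B1, HNRNPC, HNRNPF and HNRNPH1), against 13.7% of all genes, and none enriched, against 4.66%. The enriched share of all calls went from 83.9% to 25.3%.

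HNRNPU mRNA did not stand out in the fRIP of its own protein. Its values there were 323, 268 and 472 FPKM, and 281, 326 and 412 FPKM at the lowest, median and highest input. The log2 change was 0.05 (SE 0.16, adjusted p = 0.834; exact permutation p = 0.764), and the fRIP libraries spanned a wider range than the inputs did. When each isoform was instead weighted by its length, so that every fragment counted the same, the log2 change was 0.68 (adjusted p = 8.31e-06), still below 2-fold. HNRNPF was at 147, 137 and 143 FPKM in the HNRNPU fRIP, below all inputs, and HNRNPH1 at 281, 297 and 324 FPKM, also below all inputs. HNRNPC was the third member with no overlap, at 125, 126 and 146 FPKM.

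The direct comparison of the fRIPs of both hnRNP proteins does not use the mean of the inputs. Its SE and p-values rest on a spread estimated over all libraries, inputs included. HNRNPH1 fRIP exceeded HNRNPU fRIP for 8 of the 10 members, against 14.3% of all genes, with log2 differences of 2.49 for HNRNPH3 (SE 0.16), 2.14 for HNRNPH1 (SE 0.15), 1.71 for HNRNPA2B1 (SE 0.26), 1.59 for HNRNPU (SE 0.20), 1.44 for HNRNPA1, 1.42 for HNRNPK, 1.37 for HNRNPL and 1.33 for HNRNPH2. Adjusted p-values for these from limma ran from 1.67e-20 for HNRNPH3 to 1.89e-07 for HNRNPA2B1. HNRNPC (0.65, SE 0.20) and HNRNPF (0.35, SE 0.12) were higher by less than 2-fold. A fit of these 6 libraries alone, with the replicate number as a block, called the same number of members, 8.

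Across all 24 fRIPs, 20 of the 240 pairs of a member and a fRIP were enriched, against 6.90% of such pairs over all genes, and 5 depleted, against 5.52%. All of these were in 9 fRIPs. The fRIPs share the input libraries, so their values are set side by side without a comparison between them. In the SUZ12 fRIP, of a subunit of the Polycomb repressive complex PRC2, 4 members were enriched, against 15.3% of genes, and 2 depleted, against 8.60%. HNRNPH1 mRNA was at 2046, 1757 and 2007 FPKM there, the highest group mean of any member in any fRIP, with a log2 change of 2.19 (SE 0.12, adjusted p = 1.60e-23). HNRNPU (983, 857 and 1195 FPKM; log2 change 1.59), HNRNPH3 (143, 136 and 171 FPKM; 1.31) and HNRNPA2B1 (866, 786 and 1097 FPKM; 1.11) also rose. HNRNPF fell to 101, 85.4 and 84.6 FPKM (log2 change -1.43, SE 0.10) and HNRNPH2 to 9.01, 8.47 and 9.26 FPKM (-1.39, SE 0.13), below every input. The H/F subfamily thus had members at both ends of the same fRIP.

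EZH2, the catalytic subunit of the same complex, gave other values, with 2 libraries. HNRNPF was enriched there (738 and 558 FPKM; log2 change 1.39, SE 0.12; 1 member, against 10.5% of genes). HNRNPA1 (128 and 138 FPKM; -1.48, SE 0.13) and HNRNPH3 (27.4 and 26.6 FPKM; -1.11, SE 0.15) were depleted, 2 members against 9.13% of genes, though HNRNPH3 (-0.95) was not after centring. In the fRIP of DNMT1, the maintenance DNA methyltransferase, 3 members were enriched, against 9.56% of genes. HNRNPH3 had 157, 185 and 233 FPKM (log2 change 1.65, SE 0.13), HNRNPF 721, 629 and 806 FPKM (1.54, SE 0.10) and HNRNPC 385, 367 and 542 FPKM (1.08, SE 0.16), each above all inputs.

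HNRNPL was the member enriched with both PABP, the poly(A)-binding protein, and HUR, which binds AU-rich mRNA. It was at 431, 455 and 489 FPKM in the PABP fRIP (log2 change 1.23, SE 0.14; 1 member, against 11.1% of genes) and at 559, 492 and 458 FPKM in the HUR fRIP (1.36, SE 0.14; 1 member, against 6.42%). HNRNPH1 was the member depleted with PABP, at 161, 197 and 205 FPKM (-1.18, SE 0.12; 1 member, against 14.7% of genes depleted). HNRNPH1 was also enriched in the fRIPs of RBBP5, a subunit of H3K4 methyltransferase complexes (log2 change 1.59, SE 0.12; 1 member, against 2.28%), the acetyltransferase CBP (1.18, SE 0.12; 1 member, against 9.08%) and the heterochromatin protein CBX3 (1.04, SE 0.12; 1 member, against 7.45%). HNRNPH1 was enriched in 5 fRIPs, HNRNPH3 and HNRNPL in 3 each and HNRNPH2 in none. After centring HNRNPH1 was still enriched with SUZ12, RBBP5 and CBP, but lay under 2-fold with CBX3 (0.91) and in its own fRIP (0.92), and was no longer depleted with PABP (-0.68). Centring also made HNRNPA1 enriched with PABP (1.36) and HNRNPA2B1 depleted with HUR (-1.10).

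No member was called in the other 15 fRIPs, HNRNPU among them, although after centring 6 members were enriched with PCAF, against 11.8% of genes, 2 enriched with LSD1, against 4.76%, and 8 depleted with ADAR, against 35.2%. The ADAR fRIP, of an RNA editing enzyme, had 26.6% of genes enriched and 4.31% depleted but 0 of the 10 members in either class. Centring moved this fRIP by 0.98, more than any other, and the enriched share of all its calls then went from 86.1% to 24.8%. Its member changes ran from -0.71 to 0.34 with a median of -0.50, while the median of all genes was 0.29, and its libraries were the shallowest, at 1.79 M to 2.15 M fragments. The STAG2 fRIP served as a control of low RNA recovery. Its 10 changes ran from 0.27 to 0.66 with a median of 0.42, while the median of all genes was -0.03. Over the 24 fRIPs, HNRNPH1 varied the most (SD of log2 change 0.85, from -1.18 in PABP to 2.19 in SUZ12), then HNRNPH3 (SD 0.80, from -1.11 in EZH2 to 2.75 in HNRNPH1). HNRNPC (SD 0.41, from -0.61 in HDAC1 to 1.08 in DNMT1) and HNRNPK (SD 0.42, from -0.64 in HDAC1 to 1.13 in HNRNPH1) varied the least.

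**Figure D2:**
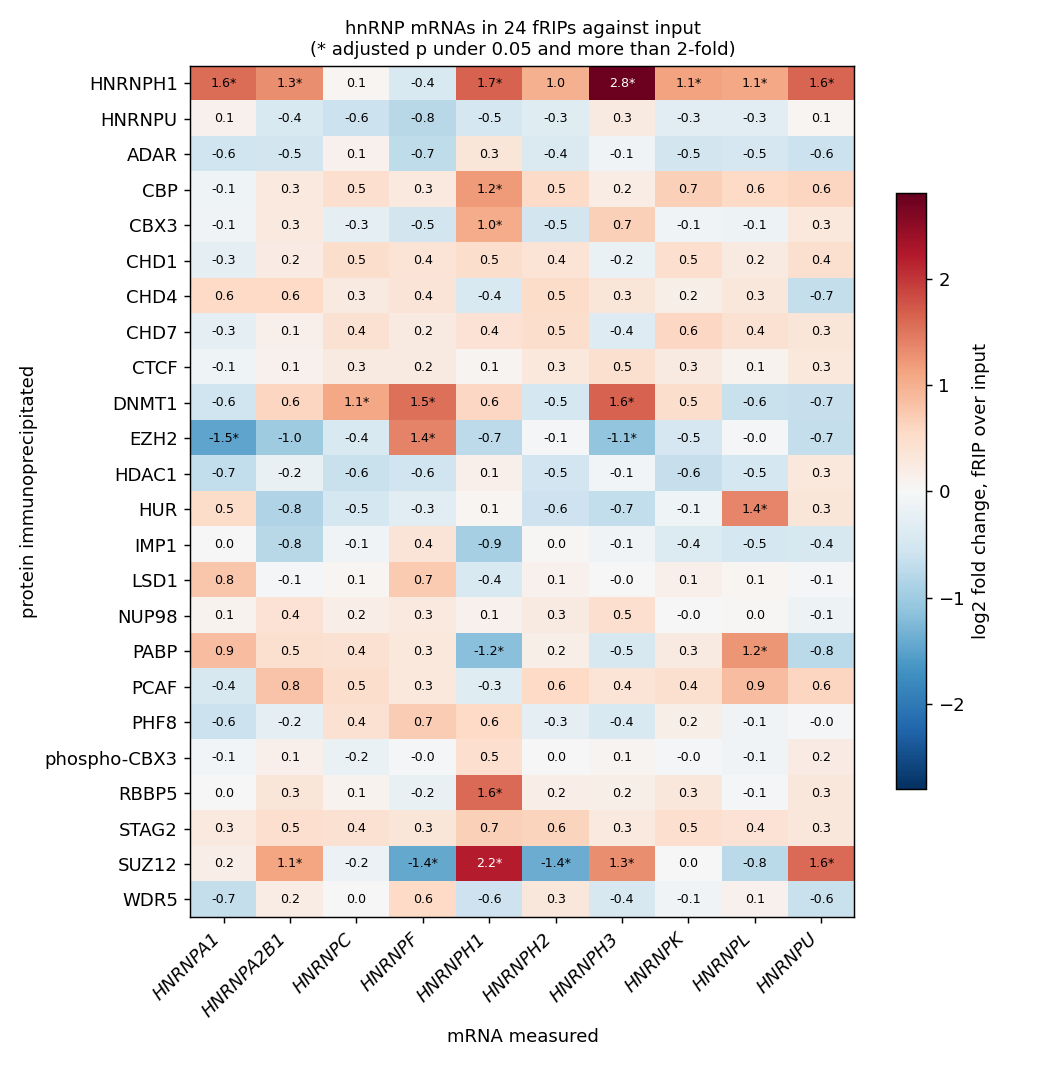
Log2 fold change over input of 10 hnRNP mRNAs (columns) in 24 fRIPs (rows), red for higher and blue for lower, with a star where the adjusted p is under 0.05 and the change more than 2-fold. The HNRNPH1 row holds 7 stars, the SUZ12 row 6 and the HNRNPU row none.

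Some patterns across the 24 fRIP means ran together. The log2 changes of HNRNPH1 and HNRNPU correlated at 0.75, as did those of HNRNPA2B1 and HNRNPH3, whereas HNRNPF and HNRNPU correlated at -0.57 and HNRNPF and HNRNPH1 at -0.45 (Pearson, 24 points that share the input libraries). Among 7440 other genes with at least 10 FPKM in input, those with the pattern most like HNRNPH1 were CCNL1 (0.920), NKTR (0.908), TARDBP (0.892), MAT2A (0.877) and DDX42 (0.876), and those most like HNRNPU included SFPQ (0.901), BCLAF1 (0.832), ZNF326 (0.811) and ACIN1 (0.804). By Spearman correlation 4 of the 5 stayed among the 5 most like HNRNPH1 and 2 of the 5 among those most like HNRNPU.

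Of 20 further genes of hnRNP and related proteins, 19 were tested and HNRNPCL1 was too low. In the HNRNPH1 fRIP 8 of the 19 were enriched, among them with log2 changes of 3.06 for HNRNPUL2, 2.09 for HNRNPA0, 1.23 for HNRNPAB, 1.22 for SYNCRIP, 1.15 for HNRNPM, 1.09 for PCBP2 and 1.04 for HNRNPA3. PCBP1 was depleted (-1.33). In the HNRNPU fRIP 0 of the 19 were called in either direction. After centring, 3 were enriched and 4 depleted in the HNRNPH1 fRIP, and 4 (RALY, HNRNPDL, PCBP1 and HNRNPA0) were depleted in the HNRNPU fRIP. The shares of all genes given above, with and without centring, apply to these counts too.

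Isoforms were then split by their annotated class into coding and retained intron, the latter being transcripts that keep intron sequence. Both classes were present with at least 1 FPKM on average for 7 members (HNRNPA1, HNRNPA2B1, HNRNPC, HNRNPH1, HNRNPK, HNRNPL and HNRNPU), and for 5059 genes in all, while HNRNPF, HNRNPH2 and HNRNPH3 have no isoform of the retained intron class in the table. In input, the retained intron share of the summed retained intron and coding FPKM was 70.9% ± 6.2 for HNRNPH1 (SD, n = 9), 38.7% ± 8.3 for HNRNPL and 28.1% ± 7.1 for HNRNPU, and between 7.37% and 12.2% for the other 4. Input set 1 had higher shares than sets 2 and 3 in all 7 genes, with means of 78.4%, 65.1% and 69.4% for HNRNPH1 and 19.6%, 8.85% and 8.14% for HNRNPA2B1.

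In the HNRNPH1 fRIP the ratio of retained intron to coding FPKM was higher than in input for 5 of the 7 genes, against 66.7% of all genes. The median log2 change of the ratio was 1.45 over the members and 1.59 over all genes, and against input set 1, 2 or 3 alone 3, 5 and 6 members were called, beside 57.5%, 67.9% and 69.95% of all genes. After each library was centred on the median ratio of its genes, HNRNPL alone stayed higher, against 24.8% of genes, and HNRNPU was lower, against 22.3%.

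HNRNPL had the largest change of ratio. Retained intron isoforms made up 90.5%, 90.4% and 82.1% of its retained intron plus coding FPKM in the HNRNPH1 fRIP, and 21.8%, 39.7% and 48.7% at the lowest, median and highest input, with no overlap. The log2 change was 3.54 (SE 0.31), an 11.6-fold higher ratio. In HNRNPA1 the share was 30.5%, 27.9% and 34.5% against 4.88%, 7.74% and 10.6% in input, and the log2 change 2.48 (SE 0.28). Most of the retained intron FPKM there came from 1 short isoform, ENST00000551665.1, which is classed as retained intron but holds 0 bases of an intron of the canonical coding isoform. Without it, an alternative chosen after seeing the data, the log2 change in HNRNPA1 was 1.12, with an exact permutation p of 0.0182 in place of 0.00455.

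HNRNPC (log2 change of the ratio 1.47, SE 0.31), HNRNPH1 (1.45, SE 0.22) and HNRNPA2B1 (1.22, SE 0.35) also had higher ratios. For HNRNPH1 mRNA the share was 89.4%, 86.2% and 85.5%, above the highest input at 80.5%, and for HNRNPA2B1 it was 20.6%, 33.6% and 17.5%, overlapping the inputs, which reached 20.0%. HNRNPK (0.73, SE 0.23) and HNRNPU (-0.61, SE 0.21) were not called. HNRNPU was the one member whose retained intron share was lower on average in the HNRNPH1 fRIP (20.3% ± 3.8, SD, n = 3) than in input.

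In the HNRNPU fRIP, 1 of the 7 genes had a higher ratio, against 42.7% of all genes, and against input set 1, 2 or 3 alone 1, 1 and 2 did, beside 25.6%, 45.5% and 50.7% of all genes, with 1 lower against set 1, beside 1.60%. With centred ratios 1 was higher, beside 13.5% of all genes, and 1 lower, beside 10.9%. That gene was HNRNPL, with shares of 79.2%, 76.3% and 60.7%, all above the inputs (log2 change 2.07, SE 0.31). HNRNPU mRNA had shares of 37.8%, 39.3% and 32.6%, within the input range of 20.0% to 40.6%, and HNRNPA1, HNRNPA2B1 and HNRNPC had changes of 0.05, -0.17 and -0.01. Set directly against the HNRNPU fRIP, the HNRNPH1 fRIP had a higher ratio for HNRNPA1 (log2 difference 2.43, SE 0.35) and HNRNPL (1.47, SE 0.38). It had a lower one for HNRNPU (-1.19, SE 0.26) and a difference of 0.02 (SE 0.28) for HNRNPK. HNRNPC and HNRNPA2B1, called higher than input in the HNRNPH1 but not in the HNRNPU fRIP, lay in the direction of HNRNPA1. Their direct differences and that of HNRNPH1 are not given, and the share of all genes was not taken for this comparison.

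**Figure D3:**
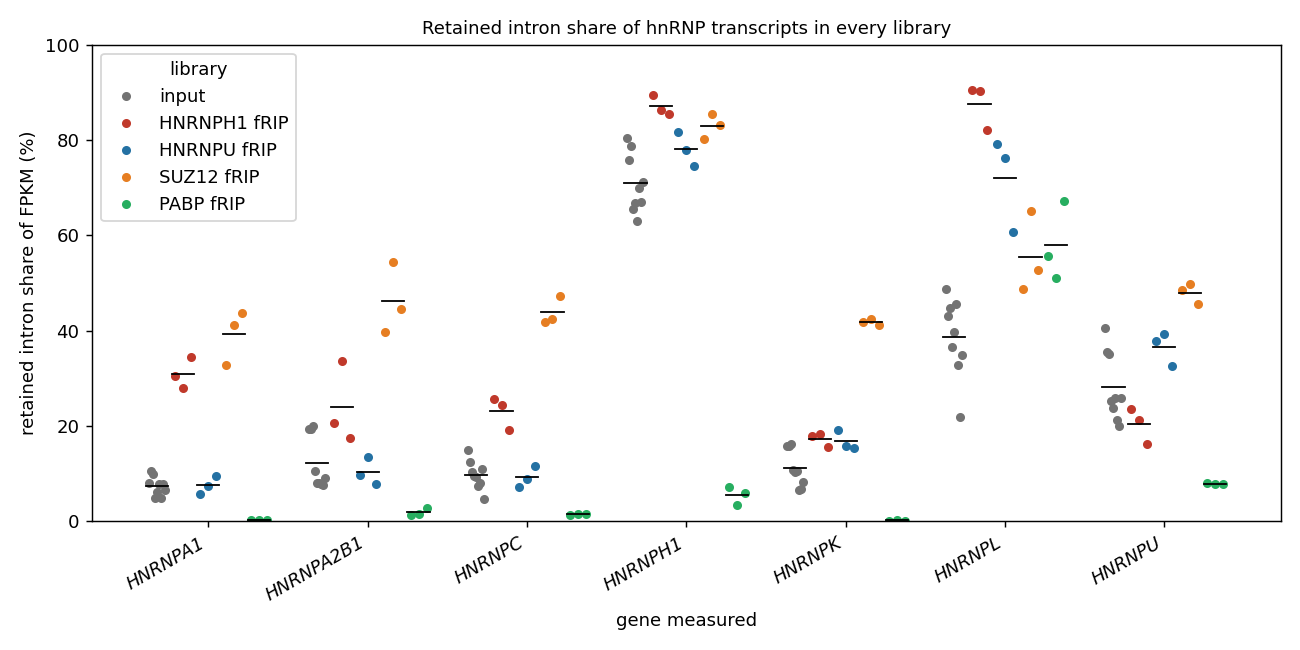
Retained intron isoforms as a percentage of retained intron plus coding FPKM for 7 hnRNP genes in every input (9), HNRNPH1, HNRNPU, SUZ12 and PABP fRIP library (3 each), with a black line at each group mean. HNRNPL rises above the inputs in all 4 fRIPs, and in the PABP fRIP the other 6 genes lie below them.

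The ratio moved in both directions in the other fRIPs. Over all 24 it was higher for 40 pairs of a member and a fRIP, against 18.3% of such pairs over all genes, and lower for 32, against 16.5%, but these counts depended on the inputs, with 19, 47 and 62 pairs higher and 56, 24 and 21 lower against input set 1, 2 or 3 alone. Over all genes 12.0%, 19.6% and 22.4% of pairs were then higher and 22.5%, 14.0% and 12.4% lower. It was higher for 6 of the 7 in SUZ12, against 53.9% of genes, for all 7 in PHF8, a histone demethylase, against 38.8%, and for 5 of 7 in RBBP5, against 19.3%. With centred ratios it was higher for 4 in SUZ12, against 19.2%, for 2 in PHF8, against 8.52%, and for 3 in RBBP5, against 4.23%. SUZ12 values for HNRNPA1 were 32.8%, 41.3% and 43.8%, and those for HNRNPK 41.9%, 42.5% and 41.3%, each above every input. In PABP 6 genes had a lower ratio, against 63.1% of genes, while HNRNPL had a higher one (1.15, SE 0.31), against 5.22% of genes. HNRNPH1 retained intron share fell to 7.23%, 3.48% and 5.95% there (log2 change of the ratio -5.30, SE 0.22), HNRNPA1 to 0.318%, 0.314% and 0.221% (-4.09, SE 0.28) and HNRNPK to 0.142%, 0.224% and 0.153% (-4.06, SE 0.23). HNRNPL kept 55.7%, 51.0% and 67.1%. Lower ratios were also called for 6 members in CHD4, a chromatin remodeler, against 57.1%, for 5 in IMP1, an mRNA-binding protein, against 46.3%, and for 5 in the acetyltransferase PCAF, against 45.3%. With centred ratios 3 were lower in CHD4, against 14.9%, 2 in IMP1, against 12.9%, and 2 in PCAF, against 9.78%.

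**Figure D4:**
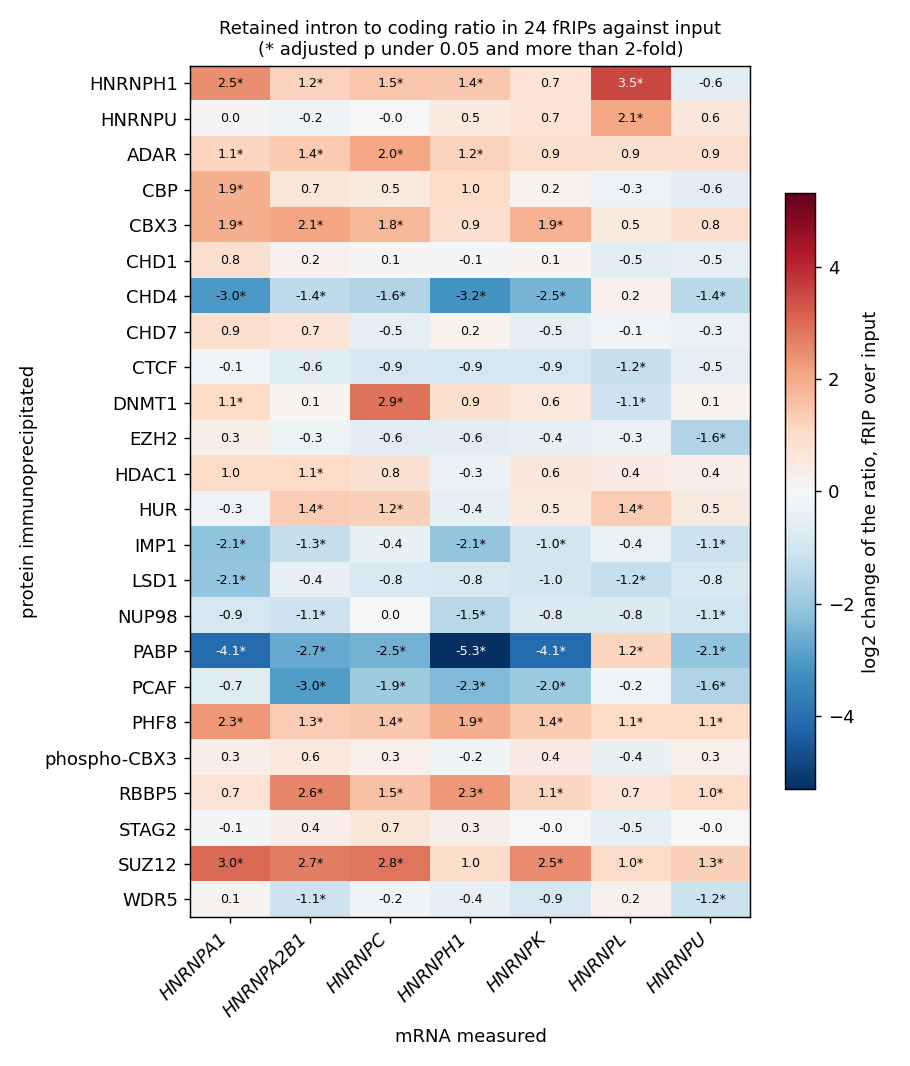
Log2 change over input of the ratio of retained intron to coding FPKM for 7 hnRNP genes (columns) in 24 fRIPs (rows), with a star where the adjusted p is under 0.05 and the change more than 2-fold. PHF8 is higher in all 7 genes, and PABP is lower in 6 and higher in HNRNPL.

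Single isoforms showed which transcripts carried these values. In the HNRNPH1 fRIP 59 of the 149 member isoforms were enriched, against 20.8% of all isoforms, and 15 depleted, against 11.0%. Of the 44 retained intron isoforms 30 were enriched, against 39.9% of that class, and of the 72 coding isoforms 18 were, against 13.0%. The median log2 change was 1.54 over the former and -0.01 over the latter. In the HNRNPU fRIP 8 of the 149 were enriched, against 8.83% of all isoforms, and 14 depleted, against 5.15%. Isoform values are estimates that divide shared fragments, so they are less certain than gene values.

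In the fRIP of its own protein, 2 coding isoforms of HNRNPU changed in opposite directions. ENST00000283179.9, the most abundant, was at 12.6, 28.2 and 105 FPKM in the HNRNPU fRIP, against 105, 178 and 227 FPKM at the lowest, median and highest input (log2 change -2.35), and at 466, 505 and 975 FPKM in the HNRNPH1 fRIP (1.79). ENST00000444376.2, a longer coding isoform of 6827 bases, was at 219, 157 and 182 FPKM in the HNRNPU fRIP and at 219, 164 and 205 FPKM in the HNRNPH1 fRIP, against 40.4, 47.5 and 63.2 FPKM in input (1.94 and 2.01). The HNRNPU gene value in its own fRIP, near that of input, thus held a lower short and a higher long isoform.

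HNRNPL isoforms separated in the same fRIPs. The retained intron isoform ENST00000595164.1 was at 57.1, 49.2 and 58.3 FPKM in the HNRNPH1 fRIP and at 27.9, 28.7 and 26.7 FPKM in the HNRNPU fRIP, against 0.174, 1.33 and 2.21 FPKM at the lowest, median and highest input (log2 changes 4.64 and 3.68). The coding isoform ENST00000601449.1 was at 2.02, 0.176 and 26.3 FPKM and at 4.98, 0.000695 and 5.47 FPKM in the same fRIPs, against 21.3, 41.5 and 101 FPKM (-3.37 and -3.81). In HNRNPK the coding isoform ENST00000351839.3 rose with both, to 72.1, 62.4 and 82.2 FPKM and 17.8, 15.6 and 16.7 FPKM, from an input median of 0.48 FPKM, although 1 input reached 22.1 FPKM. In HNRNPA1, ENST00000551665.1 was at 265, 220 and 280 FPKM in the HNRNPH1 fRIP and 12.8, 9.64 and 14.5 FPKM in the HNRNPU fRIP, against 6.10, 10.1 and 13.4 FPKM.

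**Figure D5:**
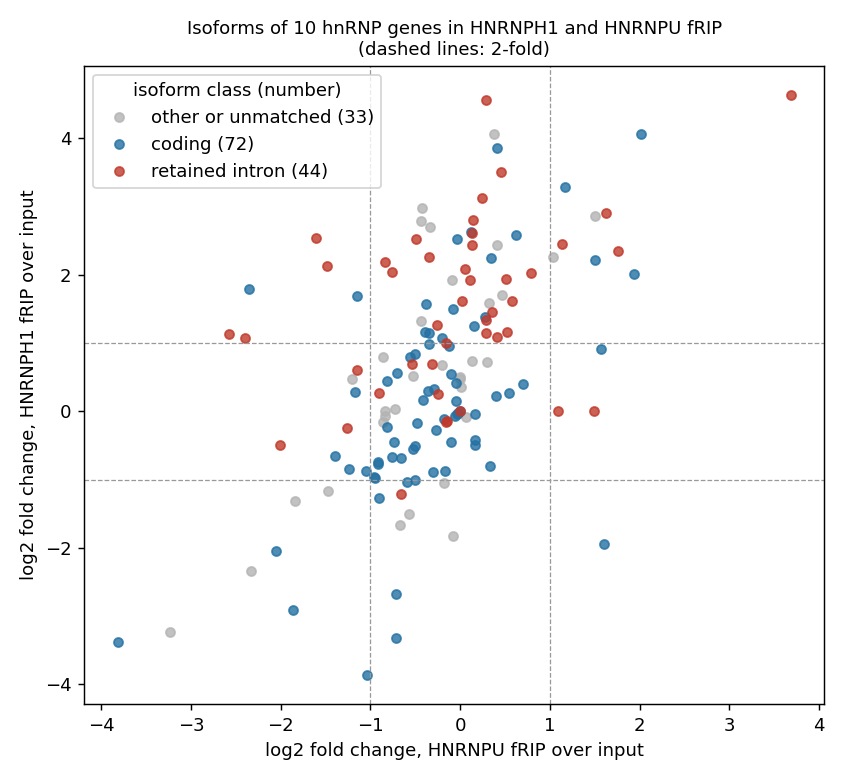
Log2 fold change over input of 149 isoforms of the 10 hnRNP genes in the HNRNPU fRIP (horizontal) and the HNRNPH1 fRIP (vertical), coloured by annotated class, with dashed lines at 2-fold. Retained intron isoforms (44, red) lie mostly in the upper part, and 4 of them lie in the upper left, enriched with HNRNPH1 and depleted with HNRNPU. The share of all retained intron isoforms with both calls was not counted.

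The retained intron isoforms enriched in the HNRNPH1 fRIP and depleted in the HNRNPU fRIP were 4, ENST00000513230.1 and ENST00000515446.1 of HNRNPH1, ENST00000595804.1 of HNRNPL and ENST00000476233.1 of HNRNPA2B1. After centring the latter pair were no longer enriched in the HNRNPH1 fRIP, and only the HNRNPH1 isoforms kept both calls. How many of all retained intron isoforms carried both calls was not counted. Singly, 30 of the 44 were enriched with HNRNPH1, against 39.9% of that class, and 5 depleted with HNRNPU, against 2.03%. The HNRNPL isoform is shown by the intron bases it keeps relative to the canonical coding isoform, with runs of G marked since the HNRNPH proteins are known to bind them. Those of the other 3 are not reported here, so the one shown does not stand for the set. ENST00000595804.1 keeps the last 106 bases of an intron of 114 (chr19:39328120-39328225). The sequence was taken from the annotated transcript sequence of the isoform, 5′ to 3′, with runs of 3 or more G in capitals. These genes lie on the minus strand of GRCh37.
HNRNPL ENST00000595804.1: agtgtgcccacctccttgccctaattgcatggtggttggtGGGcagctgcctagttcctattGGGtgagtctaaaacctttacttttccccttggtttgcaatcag

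This HNRNPL stretch holds 2 such runs, and 53.3% of intron stretches of all genes within 20% of its length hold as many or more. ENST00000595804.1 was at 56.9, 120 and 171 FPKM in the HNRNPH1 fRIP, 5.76, 3.29 and 17.5 FPKM in the HNRNPU fRIP and 29.0, 49.2 and 76.8 FPKM at the lowest, median and highest input (log2 changes 1.14 and -2.57), the first overlapping the inputs. ENST00000476233.1 of HNRNPA2B1 was at 7.15, 18.5 and 13.2 FPKM with HNRNPH1, at most 0.630 FPKM with HNRNPU and at 2.65, 4.36 and 12.0 FPKM in input (1.08, limma adjusted p = 0.0486, and -2.40), also overlapping the inputs with HNRNPH1.

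Both HNRNPH1 isoforms of this set were above every input in the HNRNPH1 fRIP. ENST00000513230.1 was at 237, 170 and 198 FPKM there, 9.10, 13.7 and 8.74 FPKM in the HNRNPU fRIP and 21.6, 35.4 and 45.4 FPKM at the lowest, median and highest input (log2 changes 2.54 and -1.61). ENST00000515446.1 was lower in all, at 26.3, 17.9 and 21.9 FPKM with HNRNPH1, against 3.21, 4.19 and 6.49 FPKM in input (2.13), and at most 2.02 FPKM with HNRNPU. These isoforms are only 248 and 368 bases long, where 1 fragment adds the most to FPKM.

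The most abundant retained intron isoform of HNRNPH1 and the most abundant of HNRNPA2B1 whose intron stretch is short enough to print are given in the same way, to set their letters beside their enrichment. ENST00000519943.1 of HNRNPH1 keeps the last 289 bases (chr5:179048399-179048687) of an intron of 1639 and, not printed, the first 159 bases of an intron of 1484, which hold 0 runs of G, and ENST00000495810.1 of HNRNPA2B1 keeps the first 135 bases (chr7:26235332-26235466) of an intron of 2152.
HNRNPH1 ENST00000519943.1: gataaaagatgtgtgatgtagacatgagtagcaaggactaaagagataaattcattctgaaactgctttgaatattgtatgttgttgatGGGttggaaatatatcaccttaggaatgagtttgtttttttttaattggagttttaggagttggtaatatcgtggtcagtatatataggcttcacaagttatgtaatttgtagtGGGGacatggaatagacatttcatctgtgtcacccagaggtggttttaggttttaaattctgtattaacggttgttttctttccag
HNRNPA2B1 ENST00000495810.1: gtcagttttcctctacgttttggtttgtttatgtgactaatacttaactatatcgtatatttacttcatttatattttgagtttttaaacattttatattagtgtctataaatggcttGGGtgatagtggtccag

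The HNRNPH1 stretch holds 2 runs of G, and 77.7% of stretches of like length hold as many or more. The isoform rose to 197, 173 and 178 FPKM in the HNRNPH1 fRIP from 35.4, 43.4 and 63.2 FPKM at the lowest, median and highest input (log2 change 2.04). The isoform of HNRNPA2B1, with 1 run, was at 33.1, 42.1 and 53.0 FPKM in the HNRNPH1 fRIP against 3.84, 5.85 and 12.7 FPKM (2.52). Over the 60 intron stretches of the 7 members the median was 0.717 runs of GGG per 100 bases, and 1.37 over 31081 stretches of all genes, and 76.7% of the former and 84.4% of the latter held at least 1 (transcript strand only, stretches of 30 bases or more). Single stretches of the members ranged from 0 to 10.6 runs per 100 bases, and those of HNRNPH1 spanned that whole range, so its median of 0.503 over 24 stretches does not describe each of them. The HNRNPL median over 9 was 2.49. A run of G in these letters is a description and not a binding site.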

How the data were processed

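RNA from 70 fRIP and 9 input libraries of K562 cells was sequenced after ribosomal RNA removal with a kit that does not mark strand. Per the submitters' processing notes and the study's methods, the authors used CASAVA 1.4, aligned reads with TopHat to hg19 (GRCh37) and estimated genes and isoforms of GENCODE v18 with Cuffdiff 2 and Cuffnorm. For the counting, the strand setting is not given in the sources used here. Both deposited tables, of genes and of isoforms, hold FPKM per library, normalized by the authors. The second STAG2 column could be matched to its group but not to a numbered sample. The authors' own comparisons were not used.

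The members and lists were chosen with earlier results of these data known. With R 4.3.3 and limma 3.58.1 (intensity trend), log2(FPKM + 1) was fitted for the 25442 genes and 104506 isoforms that reached 1 FPKM in 2 or more of the 79 libraries, with a mean per protein and 1 for the 9 inputs. Calls needed more than 2-fold and a p under 0.05 after Benjamini-Hochberg adjustment over all features of 1 comparison. The ratio was log2 of (retained intron sum + 1) over (coding sum + 1), for 5059 genes with both sums at a mean of at least 1 FPKM. Exact permutation tests, two-sided, used 220 arrangements of 3 against 9 libraries. Classes, coordinates and sequences came from GENCODE v44 lifted to GRCh37, to which 172143 of 185661 isoforms matched by identifier without version, so that the end points of an isoform may differ from those the authors counted. No protein sequence was used. Some items of the lists and some sequences are not reported here. Depth was read from FPKM steps of single-isoform genes, of which 87.4% to 91.1% came out whole (within 0.15) in the inputs and 89.4% to 91.8% in the HNRNPH1 and HNRNPU fRIPs. In 1 STAG2 library, 32.4% did and its depth is uncertain.

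Named were all 10 members, each with the fRIPs of its highest and lowest change, the most abundant coding and retained intron isoforms, isoforms called in either hnRNP fRIP, and the 5 genes closest in pattern to HNRNPH1 and to HNRNPU. On simulated data with 200 changed features, 97.0% of genes, 85.0% of isoforms and 90.5% of ratios were recovered in the HNRNPH1 comparison. The pairing of libraries by replicate number was examined through correlations of deviations from the group means. Same-numbered HNRNPH1 and HNRNPU libraries correlated at 0.178, 0.152 and 0.277, each over 0.1 and each the best match, so the numbers were taken to pair these from the data alone. With the inputs, not every pair exceeded 0.1, the lowest being -0.15. Python 3.11.15, pandas 2.3.3, numpy 2.4.6 and matplotlib 3.10.9 were also used. Alternatives tried were the pseudocount, the filter, centring, single input sets, the replicate block, fits of fewer libraries, leaving out libraries, and, chosen after seeing the data, length-weighted values, a block within the HNRNPH1 and HNRNPU libraries and HNRNPA1 without an isoform.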

Additional observations from a re-analysis of the deposited data

How the results depend on the processing

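Limits come first. FPKM is relative within a library, and the HNRNPH1 and HNRNPU libraries were shallower than the inputs. The 3 input sets differed in the retained intron share, with no label that says why. Isoform values depend on how shared fragments were divided, and isoform classes come from a later annotation than the one counted. Replicates are 3 lysates of 1 cell line.

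Several counts moved with the processing, and the share of all features called the same way is given after each. Centring each library left 1 member enriched (8.59%) and 1 depleted (22.1%) in the HNRNPH1 fRIP, 4 depleted in the HNRNPU fRIP (13.7%), 17 pairs of a member and a fRIP depleted (6.58%), and 5 member isoforms enriched with HNRNPU (6.32%). For the retained intron ratio it left 1 member higher (24.8%) and 1 lower (22.3%) with HNRNPH1, 1 lower with HNRNPU (10.9%), and 20 pairs higher (11.5%) and 18 lower (9.92%). With the adjusted p alone, 1 member was depleted with HNRNPH1 (17.8%) and 5 with HNRNPU (12.7%), and 76 pairs were enriched (19.0%) and 58 depleted (16.0%). Length-weighted values gave 8 pairs depleted (5.17%). Against input set 1 alone, the ratio was higher for 3 members (57.5%) and lower for 1 (2.83%) with HNRNPH1, lower for 1 with HNRNPU (1.60%), and higher for 19 (12.0%) and lower for 56 pairs (22.5%), and 9 member isoforms were depleted with HNRNPH1 (8.96%). Against input set 3 alone, it was higher for 2 members with HNRNPU (50.7%), and higher for 62 (22.4%) and lower for 21 pairs (12.4%). The cause of these moves was not tested.

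Some log2 changes near 0 turned sign. HNRNPC in the HNRNPH1 fRIP was -0.68 after centring, -0.15 and -0.10 against input sets 2 and 3, -0.11 with length weighting and from -0.10 to 0.15 when libraries were left out, the lowest without replicate 3 of that fRIP. In the HNRNPU fRIP, centring gave -0.47 for HNRNPA1, -0.33 for HNRNPH3 and -0.54 for HNRNPU, set 1 gave 0.025 for HNRNPK and 0.0087 for HNRNPL, and set 2 gave -0.079 for HNRNPU, which ran from -0.18 (without replicate 3 of that fRIP) to 0.23 when libraries were left out.

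Leaving out libraries gave 5 to 8 members enriched with HNRNPH1, 16 to 21 pairs enriched and 5 to 7 depleted, 4 to 5 members with a higher ratio with HNRNPH1, and 36 to 42 pairs with a higher and 28 to 39 with a lower ratio. With a replicate block over all libraries, 7 members were enriched with HNRNPH1, 0 with HNRNPU and 8 were higher with HNRNPH1 than with HNRNPU, 20 pairs were enriched and 5 depleted, and the ratio was higher for 5 and 1 members and for 40 pairs and lower for 32. Of these settings, the share of all genes was taken only without replicate 3 of the HNRNPH1 fRIP, where 25.6% were enriched with HNRNPH1. The other counts therefore show only how far the member calls moved. The block within the paired HNRNPH1 and HNRNPU libraries gave 3364 genes higher and 1827 lower, against 3245 and 1765 without it. It changed no other count. Pseudocounts, filters, fits of fewer libraries and the class used for coding kept every count within 1.5 times of the one reported.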
